A study of Danio rerio with 50 samples.

Results

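The genes described here carry names of gene families with members that build or serve the primary cilium, and were read in zebrafish olfactory sensory neurons (OSNs). They are called cilium genes below, though a role in the cilium was not checked gene by gene. They were taken by name alone: every gene in both count tables whose name, ignoring case, starts with ift, bbs, cep or rfx followed by a digit, or with dync2, tctn, arl13, nphp, foxj1 or tulp. This rule found 82 of the 29033 genes counted, and used no expression value. They comprise 35 centrosomal cep genes, 11 rfx and foxj1 transcription factor genes, 11 genes of the IFT-B train, 2 of the IFT-A train, 8 bbs genes, 7 tulp genes, 5 tectonic and nephrocystin genes of the transition zone, 2 arl13 genes and 1 dynein-2 gene.

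The data hold 47 single OMP-positive cells of Tu/TLF strain embryos and 3 bulk samples of OMP-positive cells. The single cells were captured on a Fluidigm C1 chip while OSN axons were reaching the olfactory bulb. The study sequenced more single cells and kept these 47 after its own exclusions for quality. All cells came from fish with an RFP reporter under the olfactory marker protein (OMP) promoter and were sorted on it. The bulk cells were, by the study's account, also labelled from an or111-7 receptor promoter, so that they stand for a subset of OSNs and not for all of them. Cells carried either Fluidigm spike-ins (14 cells, here run 1) or ERCC spike-ins (33 cells, here run 2). That these sets are the 2 capture runs is taken from the labels' spike-in set and is not stated by the study; every sum, pairing and comparison between runs below rests on it. The labels give no maturity class. Cells were therefore classed by genes outside the cilium list: 29 mature cells with an odorant receptor (OR) at 10 CPM (counts per 1000000 counts of the cell) or more, 5 immature cells with gng8 or gap43 at 20 CPM or more and no such OR, and the other 13, mature cells without an OR. The study's own assignment put the same cells in each class. The cutoffs were chosen with that assignment known, so that this match is no independent check. The 29 cells with an OR divided into 9 of clade A, 10 of clade B and 10 of clade C, by the family of their highest receptor. Total counts ranged from 6951519 to 30192554 per cell.

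In ciliated OSNs, the olfactory cilia carry the odorant receptors and the transduction channels, so that such a cell detects odours only once it has grown them. A cilium grows from a centriole that has docked at the membrane. Intraflagellar transport (IFT) then carries material in trains: IFT-B with kinesin towards the tip, IFT-A with dynein-2 back to the base, with the BBSome as an adaptor for membrane proteins and the transition zone as a gate. RFX and FOXJ1 factors switch on many of the genes needed. Olfactory loss is a known feature of human ciliopathies such as Bardet-Biedl syndrome.

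The classes stood apart on the genes that defined them. The highest OR of any immature cell was at 2.64 CPM, and the immature markers summed to 220 CPM or more in the 5 immature cells and to at most 12.7 CPM in the mature cells. Each immature cell carried only 1 of the 2 markers. Gng8 was at 1175 and 1514 CPM in s23543 and s23569, with gap43 at 0.0 CPM. Gap43 was at 396, 1164 and 220 CPM in s20535, s23545 and s23573, with gng8 at 0.051 CPM or less. Whether these are cells of 1 kind was not tested. Among the mature cells, 3 cells of run 1 stood apart: s20534 (without an OR), s18930 (clade A) and s20565 (clade B) had sums of the 7 mature OSN markers of 2.35, 2.84 and 54.4 CPM, against 1624 CPM or more in the other 39 mature cells. The immature cells had sums of 5.50 to 726 CPM (median 139 CPM), so that s20534 and s18930 lay below all of them and s20565 within their range. These 3 cells of the mature classes are included in the counts and fits below unless stated. Leaving them out lowers the number of cells with a gene by at most 2 (cep131, from 12 to 10 of the cells with an OR), and moves the lowest cell without an OR from 3 to 7 cilium genes and from 0.147 to 0.506% of detected genes. The median of cells with an OR moves from 11 to 12 cilium genes. Markers of other cells were higher in some immature cells. The 2 crypt neuron markers summed to 0.058 to 3127 CPM in the immature cells (median 465 CPM), against medians of 0.44 and 0.27 CPM without and with an OR (highest 1264 and 2585 CPM), with 1 of the 2 detected in a cell. The terminal nerve marker reached 2680 CPM in an immature cell and at most 3.47 CPM in a mature one. The 2 microvillous OSN markers reached 982 CPM in an immature cell (median 1.67 CPM), and 1240 and 77.4 CPM in the mature classes. Markers listed for epidermis (krt4, krt5 and epcam) summed to medians of 2920 CPM in immature cells, and 228 and 2116 CPM without and with an OR (highest 9124, 2702 and 10418 CPM). Of these 3 genes only 1 was detected in any immature cell, and 2 in each mature class. The part of these markers of other cells in the differences of cilium genes between the classes was not tested.

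Only 1 immature cell and 2 mature cells without an OR came from run 1, so that comparisons of classes rest mainly on run 2. The classes were built from cells, and only 2 runs stand behind each. An exact two-sided permutation test of 2 against 2 runs, taken as unpaired, cannot go below p = 0.333. No such limit was worked out for immature cells against both mature classes, or for runs taken as pairs.

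Cilium genes were detected unevenly, a few at a time, in every cell. A gene was called detected in a cell at 100 counts or more, the study's own minimum. At this minimum 48 of the 82 genes (58.5%) were detected in at least 3 of the 47 cells and were tested, against 27.2% of all 29033 genes, and 15 were detected in no cell. Mature cells with an OR held 4 to 23 detected cilium genes (median 11) and mature cells without one 3 to 19 (median 13). The immature cells s20535 (run 1), s23543, s23545, s23569 and s23573 (run 2), always given in this order below, held 6, 7, 6, 7 and 16 (median 7), although they had more detected genes in all, 2090 at the median against 1825 and 1692.

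As a share of the genes detected in the cell, cilium genes made up 0.235 to 0.518% in the immature cells (median 0.363%). The share was 0.147 to 1.09% in mature cells without an OR (median 0.623%) and 0.353 to 1.1% in mature cells with one (median 0.628%). The classes overlapped. Within run 2 the 4 immature cells had a median of 0.349%, against 0.650% and 0.691% in mature cells without and with an OR. In run 1 the single immature cell was at 0.382%, the 2 cells without an OR were at 0.147 and 0.544%, and the 11 cells with an OR ranged from 0.353 to 0.777%. After every cell was thinned to the lowest total of 6951519 counts the medians were 0.361, 0.611 and 0.660%. The 3 mature cells low in OSN markers had shares of 0.147, 0.372 and 0.375%, within the range of the immature cells or below it. Over the 47 cells the number of cilium genes detected followed the number of all genes detected with a Pearson r of 0.538 and a Spearman rho of 0.541, 2 counts that share each cell's depth and amplification.

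**Figure D1:**
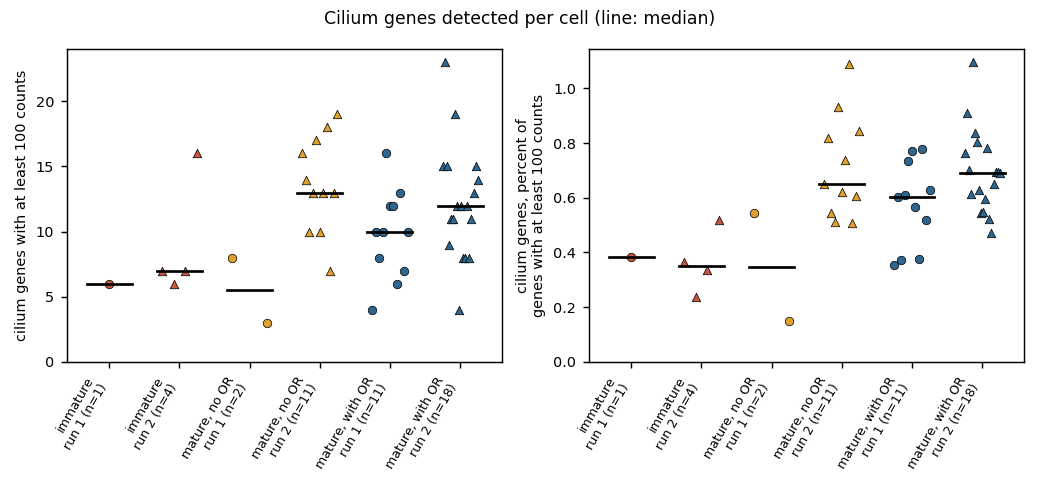
Number of cilium genes with at least 100 counts in each cell (left), and the same number as a percent of all genes with at least 100 counts (right), by class and run; each point is a cell and each line a median. Immature cells lie at 0.235 to 0.518% and overlap the mature cells, whose medians are 0.623% without and 0.628% with an OR.

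**Figure D2:**
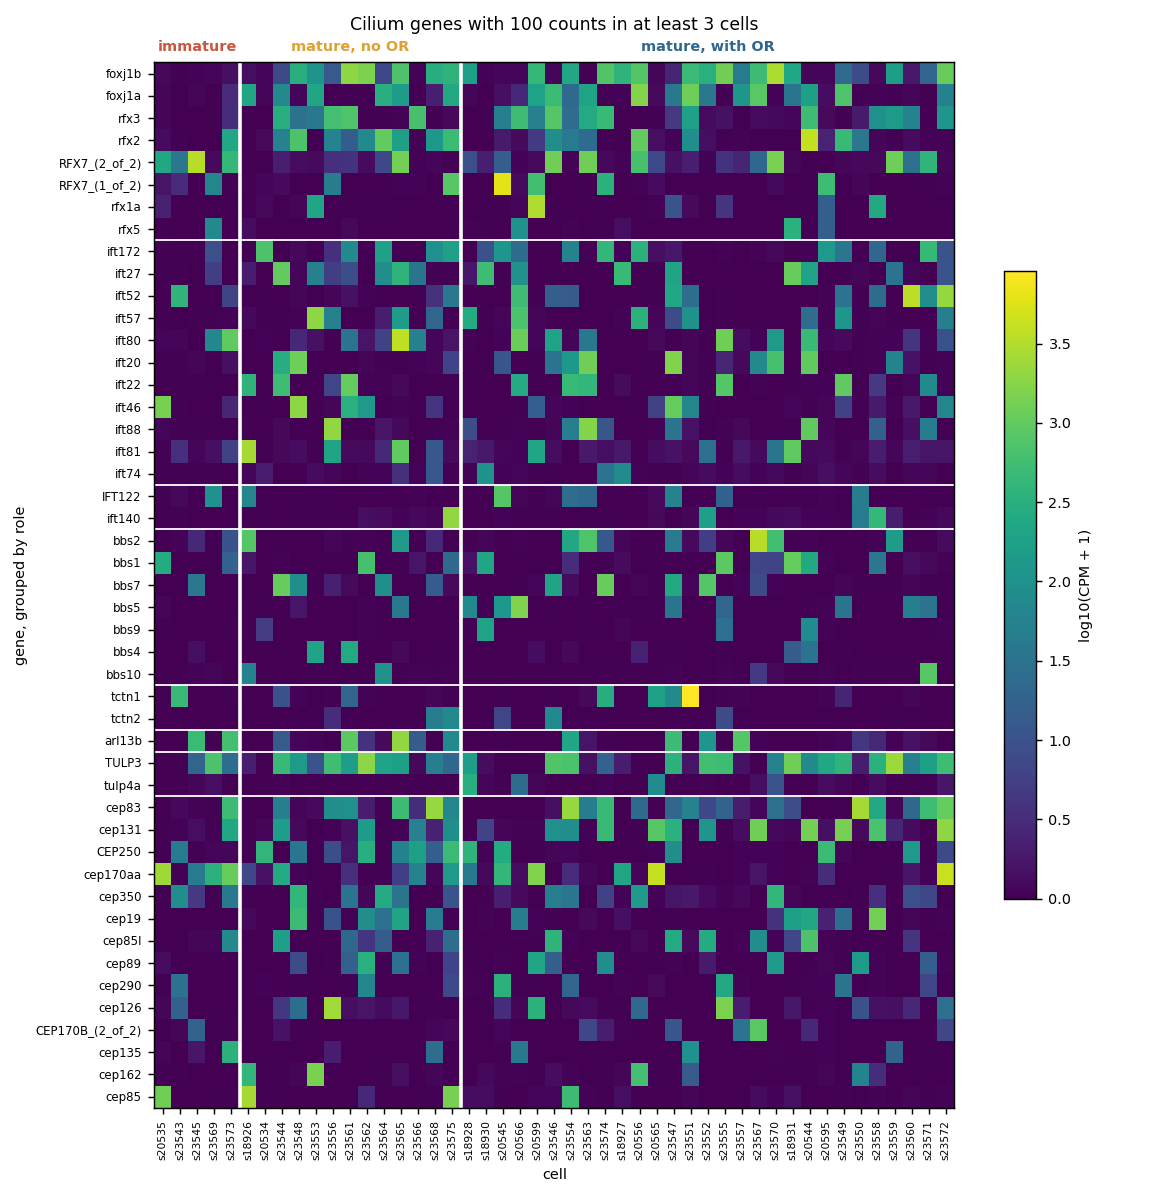
Levels of 47 of the 48 tested cilium genes (rows, grouped by role) in the 47 cells (columns, grouped by class, cells with an OR ordered by clade A, B and C), as log10(CPM + 1). Single genes are high in some cells and near 0 in others of the same class, and the foxj1b, foxj1a and rfx3 rows are dark in all 5 immature cells.

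The factors foxj1a, foxj1b and rfx3 were near 0 in the 5 immature cells and high in many, not all, mature cells. Of the 8 tested genes of the rfx and foxj1 group 4 were detected in no immature cell: foxj1a, foxj1b, rfx3 and rfx1a. Over all tested genes 33.2% were detected in no immature cell, and over the 48 tested cilium genes 45.8%. Foxj1b, a forkhead factor of the family that switches on cilium genes, was at 0.23, 0.05, 0.08, 0.19 and 0.46 CPM in the 5 immature cells. In mature cells without an OR it ranged from 0.098 to 1884 CPM (median 110 CPM), and in mature cells with an OR from 0.053 to 2958 CPM (median 40.7 CPM). It was detected in 0 of 5 immature cells, 10 of 13 mature cells without an OR and 18 of 29 with one. Every immature cell was therefore low, as were 14 of the 42 mature cells, so that the classes overlapped at the low end only. The exact 95% interval for 0 of 5 cells reaches a share of 52.2%, before any spread between runs.

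Its paralog foxj1a was also low in every immature cell. It was at 0.12, 0.00, 0.11, 0.00 and 2.02 CPM in the immature cells, and reached 311 CPM in mature cells without an OR (median 1.15 CPM) and 1659 CPM in cells with one (median 1.79 CPM). It was detected in 0, 6 and 14 cells of the 3 classes. The 2 paralogs did not mark the same cells: of the 42 mature cells 15 had both, 13 had foxj1b only, 5 had foxj1a only and 9 had neither. The cell with the highest foxj1b (s23570, 2958 CPM) had foxj1a at 0.11 CPM, so that reads of one gene were not counted for the other to any visible extent in that cell.

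Of the RFX factors, which bind the X-box of cilium gene promoters, rfx3 was at 0.12, 0.00, 0.00, 0.06 and 2.28 CPM in the immature cells. It reached 743 CPM in mature cells without an OR (median 0.22 CPM) and 802 CPM in those with one (median 0.96 CPM), and was detected in 0, 6 and 13 cells. Rfx2 was detected in 1, 9 and 8 cells, with the 1 immature cell, s23573, at 230 CPM. The 4 other immature cells had rfx2 at 0.29 CPM or less. Of all 11 rfx and foxj1 genes at least 1 was detected in 5 of 5 immature and 40 of 42 mature cells, and the group summed to 37.4 to 3338 CPM in the immature cells (median 232 CPM) and to 1.11 to 6174 CPM in the mature ones (median 881 CPM). At least 1 of the subset foxj1a, foxj1b, rfx2 and rfx3, chosen with these values known, was detected in 38 of 42 mature cells and in 1 of 5 immature cells. The 3 mature cells low in OSN markers had none of the 4, and the same count was 38 of 39 without them. Within run 2 it was 1 of 4 immature cells, 11 of 11 without an OR and 18 of 18 with one, and within run 1 it was 0 of 1, 1 of 2 and 8 of 11.

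RFX7_(2_of_2), 1 of 2 genes annotated to the RFX7 name, was high in most immature cells and low in most mature ones. It was at 229, 35.4, 3338, 0.25 and 435 CPM in the immature cells. It was detected in 4 of 5 immature cells, in 2 of 13 mature cells without an OR (median 0.32 CPM, highest 1337 CPM) and in 11 of 29 with one (median 1.12 CPM, highest 1423 CPM). The ranges of the classes overlapped. The other copy, RFX7_(1_of_2), was detected in 1, 2 and 4 cells, and only 1 mature cell had both. How reads shared by the copies were assigned is not given in the sources used here. Rfx1a was detected in 0, 1 and 4 cells and rfx5 in 1, 0 and 3. The other 3 genes of this group, rfx1b, rfx4 and rfx6, were detected in 1 cell or none.

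**Figure D3:**
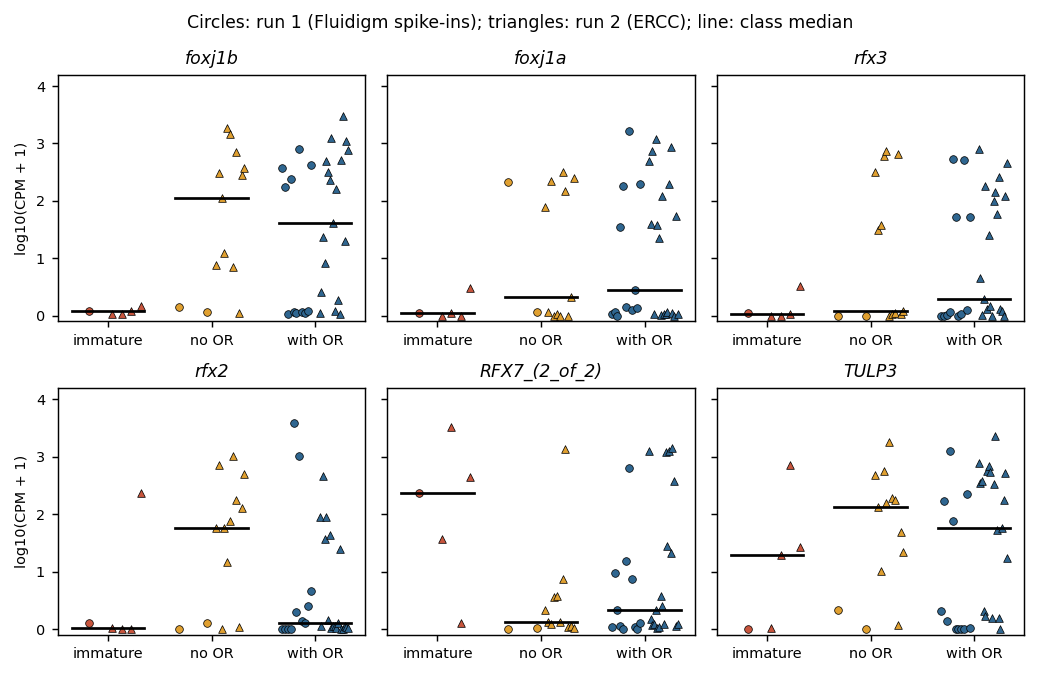
Levels of 5 transcription factor genes and TULP3 in each cell as log10(CPM + 1), by class; circles are run 1, triangles run 2, lines class medians. Foxj1b, foxj1a and rfx3 stay below 2.5 CPM in the 5 immature cells, while RFX7_(2_of_2) reaches 35 CPM or more in 4 of them.

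All 11 IFT-B genes passed the minimum, and 7 of them (ift20, ift22, ift27, ift57, ift74, ift81 and ift88) were detected in no immature cell. Over all tested genes 33.2% were detected in no immature cell, and over the 48 cilium genes 22 (45.8%). In cells without an OR 3 of the 48 (6.25%) were missing in this way, against 13.4% of all tested genes. In cells with an OR it was 0 of the 48, against 2.12%. The minimum was set over all 47 cells, so that a class with 29 of them seldom misses a tested gene. A smaller share of immature than of mature cells held 30 of the 48 (62.5%), against 45.2% of all tested genes. A gene seen in few cells easily misses a class of 5. IFT-B genes were nonetheless present in nearly all mature cells: at least 1 was detected in 13 of 13 without an OR and in 26 of 29 with one (37 of 39 in all without the 3 cells low in OSN markers), with a median of 2 and up to 6 genes a cell. Of the immature cells 4 of 5 held at least 1, with a median of 1 and up to 2.

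Ift172, the largest IFT-B protein, was detected in 1, 5 and 11 cells of the immature, no-OR and OR classes, and its immature cell was at 8.16 CPM. Ift27, a small GTPase of the train, was detected in 0, 6 and 8 cells and ift57 in 0, 4 and 8. Their highest levels in an immature cell were 4.49 and 0.10 CPM, against 1078 and 1932 CPM in a mature cell. Ift20, which also works at the Golgi, was detected in 0, 2 and 9 cells, and ift22, another GTPase of the train, in 0, 4 and 6. Ift22 had 2 counts in all in the immature cells and 89918 in the mature ones.

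The exceptions among IFT-B genes were ift52, ift80 and ift46. Ift52, a core subunit, was at 389 CPM in s23543 and 5.51 CPM in s23573, was detected in 10 of 29 cells with an OR and up to 3596 CPM, and in 1 of 13 without (36.9 CPM). Ift80 was at 965 CPM in s23573 and 65.7 CPM in s23569, and ift46 at 1405 CPM in s20535. Immature cells thus held single IFT-B genes at levels within the range of the mature cells. The 2 IFT-A genes were sparse in every class. IFT122 was detected in 1, 1 and 6 cells and ift140 in 0, 1 and 3.

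Dync2li1, a light intermediate chain of the dynein-2 motor, was detected in 1 cell only, the clade A cell s20545, at 2754 CPM. All other cells were at 2.45 CPM or less. Of the 7 bbs genes tested 4 were detected in no immature cell, where 33.2% of all tested genes were. By edgeR 6 had a log2 difference below 0 between immature and mature cells (median -6.33), and none was called. Over all tested genes 60.9% were below 0 (median -1.21). The bbs genes gave no clear order of mature cells without and with an OR (median log2 difference -0.05). Bbs2 was detected in 1, 2 and 7 cells, with a highest level of 8.75 CPM in an immature cell and 3345 CPM in a mature one, bbs1 in 2, 2 and 5, bbs7 in 1, 4 and 4, and bbs5 in 0, 1 and 8. At least 1 bbs gene was detected in 3 of 5 immature cells, 11 of 13 mature cells without an OR and 20 of 29 with one.

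The tectonic gene tctn1, of the transition zone, was detected in 1, 2 and 4 cells and tctn2 in 0, 2 and 3. Clade B cell s23551 held tctn1 at 9007 CPM. Arl13b, a GTPase of the ciliary membrane, was detected in 2, 5 and 4 cells, with 487 and 593 CPM in the immature cells s23545 and s23573. Within run 1 it was detected in 0 of 1, 0 of 2 and 0 of 11 cells of the classes. Within run 2 the counts for arl13b were 2 of 4, 5 of 11 and 4 of 18. Its relative arl13a had no count in any cell.

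TULP3, which hands receptors to IFT-A for entry into the cilium, was the cilium gene detected in the most cells, 30 of 47. It was at 0.00, 0.05, 18.4, 713 and 26.3 CPM in the immature cells, and was detected in 3 of 5. In mature cells without an OR its median was 135 CPM (0.00 to 1825 CPM, detected in 10 of 13), and in those with an OR 56.6 CPM (0.00 to 2322 CPM, 17 of 29). No class stood apart for this gene. The 2 cells without an OR in run 1 lacked it and 10 of 11 in run 2 had it, and among cells with an OR 4 of 11 and 13 of 18 had it. Tulp4a was detected in 3 cells with an OR and no other.

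Of the 35 cep genes 14 were tested. Of these, 7 were detected in a smaller share of immature than of mature cells, and 10 had a log2 difference below 0 between the classes (median -1.14). The same median was -7.53 for the 11 IFT-B genes and -4.63 for all 48 cilium genes tested. Every cell held at least 1 cep gene. Cep83, of the appendages that dock the centriole, was detected in 1, 6 and 15 cells and cep131, of the centriolar satellites, in 1, 4 and 12. CEP250, which links the centrioles, was detected in 1, 8 and 5, cep350 in 2, 5 and 5 and cep85l in 1, 4 and 5. Cep89, another appendage gene, was detected in 0, 4 and 6 cells.

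Cep170aa and cep19 were among the genes with an unadjusted p under 0.05 between immature and mature cells, as given below. Cep170aa, a relative of the mammalian centriolar appendage gene CEP170, was at 2484, 0.00, 39.5, 348 and 1067 CPM in the immature cells. Its median was 0.59 CPM in mature cells without an OR (highest 258 CPM) and 0.11 CPM in those with one (highest 4389 CPM). It was detected in 4 of 5, 3 of 13 and 6 of 29 cells, so that immature cells were mostly high and mature cells mostly low, with overlap at both ends. Cep19, of the mother centriole, had no count in any immature cell. It was detected in 6 of 13 and 5 of 29 mature cells, up to 503 and 1313 CPM. It was thus below 100 counts in most mature cells too, and of its 40237 counts in mature cells 17479 came from the single cell s23558.

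**Figure D4:**
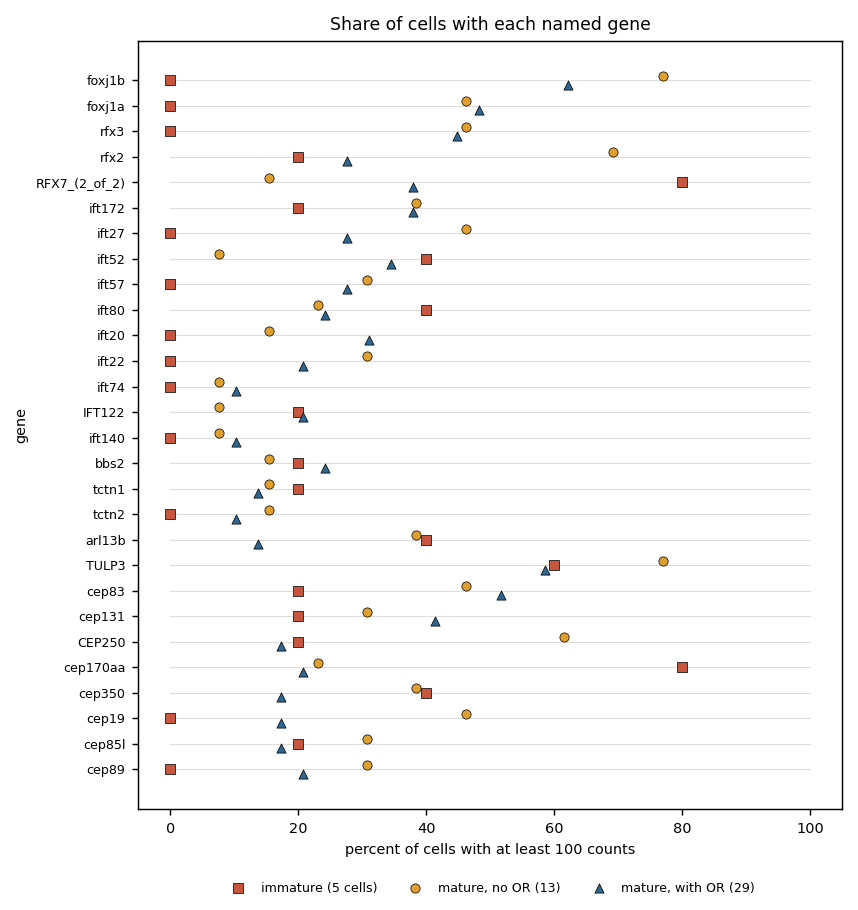
Percent of cells with at least 100 counts of each named and tested cilium gene in immature cells (squares, n = 5), mature cells without an OR (circles, n = 13) and mature cells with an OR (triangles, n = 29). Squares at 0 include foxj1b, foxj1a and rfx3, and those at 80% are RFX7_(2_of_2) and cep170aa.

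The comparison of immature with mature cells was tested across all genes that passed the minimum, on counts summed per class and run. Immature cells were set against the mean of both mature classes. The 13 cells without an OR thus weighed as much as the 29 with one. The edgeR quasi-likelihood F test, adjusted over all 7886 genes by Benjamini-Hochberg, called 0 of the 48 cilium genes at an adjusted p of 0.05, where 0.0127% of all genes were called. At an unadjusted p under 0.05 there were 3 of 48, where 4.44% of all genes passed: cep170aa, cep19 and ift22. For cep170aa the log2 difference was 5.03 (SE 2.34, edgeR adjusted p = 0.561), and without the single immature cell of run 1, s20535, it was 1.92 (edgeR adjusted p = 0.866, with 1 immature sum left that is assumed to vary like the other sums, within a range of 0.000269 by DESeq2 to 0.938 without the run 1 cells with an OR, over all alternatives). For foxj1b the log2 difference was -9.23 (SE 5.22, edgeR adjusted p = 0.561), and -4.96 without the run 2 sum of mature cells lacking an OR (edgeR adjusted p = 0.678, within a range of 0.0804 by DESeq2 with the run as a block to 0.938). At this spread between sums the edgeR fit could call very little, so that a count of 0 says little about any gene. DESeq2 on the same sums called 16 of 48 (33.3%), where it called 23.1% of all genes. There were 4 higher in immature cells, where 10.1% of all genes were called higher, and 12 lower, where 13% were called lower. The higher were RFX7_(2_of_2), bbs1, cep170aa and ift46. Of these, ift46 was at 1405 CPM in s20535, the only immature cell of run 1, and at 1.62 CPM or less in the other immature cells. Bbs1 was at 266 CPM in s20535 and at 16.7 CPM or less in the others. DESeq2 was not rerun without this cell. The lower included foxj1a, ift172, ift22, cep19 and tctn2.

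Of the 48 genes 36 had a log2 difference below 0, against 60.9% of all genes tested. Their median was -4.63 against -1.21 for all genes. With DESeq2's size factors in place of TMM the medians were -2.36 and -0.42, so that the scaling moved both. Without the mature cells lacking an OR of run 2 the median of the cilium genes was -0.76, against 0.52 for all genes. Without the immature cells of run 2 the medians were -7.38 and -7.64, so that the cilium genes were then no lower than all genes. The common dispersion between sums was 3.89.

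Mature cells with and without an OR were compared in the same fit, which asks whether their cilium genes differed. The study proposes that cells without an OR had perhaps yet to start OR expression, or were OMP neurons of a kind without it. Which of these holds was not tested. EdgeR called 0 of the 48 genes, and 0.0% of all genes were called. At an unadjusted p under 0.05 it found 0 of 48, against 1.01% of all genes. DESeq2 called 2 of 48, cep85 and ift81, both higher without an OR, against 6.83% of all genes called and 4.34% called higher. Both rested mainly on single cells of each run. Among cells without an OR, cep85 was at 2639 CPM in s18926 and 1369 CPM in s23575. Ift81 was at 2687 CPM in s18926 and 982 CPM in s23565. DESeq2 was not rerun without these cells. Of the 48 genes 23 (47.9%) were detected in a smaller share of cells without an OR, against 42.2% of all genes tested. The median log2 difference without minus with an OR was -0.66 for the cilium genes and -0.55 for all genes by TMM, and 0.27 and 0.56 with DESeq2's size factors, so that no direction could be given. Rfx2 (9 of 13 cells without an OR, 8 of 29 with one) and CEP250 (8 of 13, 5 of 29) were detected in a larger share of cells without an OR, and ift52 (1 of 13, 10 of 29) in a smaller one. None of these passed the test.

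Cells of the 3 clades held similar numbers of cilium genes, with medians of 12, 11 and 11 for clades A, B and C. Of 44 cilium genes tested among cells with an OR, edgeR called 0 in each clade against the others, where 0.0178% of all 5623 genes were called in each. At an unadjusted p under 0.05 it found 2, 2 and 1 genes, where 5.05%, 5.19% and 5.51% of all genes passed, and DESeq2 called 2, 5 and 5, where it called 14.2%, 17.5% and 16.6% of all genes. Rfx3 was detected in 7 of 9 cells of clade A, 1 of 10 of clade B and 5 of 10 of clade C, with medians of 51.5, 0.26 and 29.7 CPM. In clade A it was detected in 3 of 5 cells of run 1 and 4 of 4 of run 2, and in clade B in 0 of 3 and 1 of 7. EdgeR gave adjusted p = 0.919 for clade A and 0.781 for clade B. TULP3 was detected in 4, 4 and 9 cells (edgeR adjusted p = 0.878 for clade C) and foxj1b in 4, 8 and 6. These genes were picked out after their counts were seen.

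Other genes of the cilium, outside the name rule, were read from a list of 66, of which 58 matched a gene and 36 were tested. EdgeR called 0 of 36 in either comparison, where 0.0127% and 0.0% of all genes were called. At an unadjusted p under 0.05 there were 0 of 36 in either, where 4.44% and 1.01% of all genes passed. The median log2 difference was -2.17 for immature against mature cells, with 29 of 36 below 0. For all genes tested it was -1.21, with 60.9% below 0. For cells without against with an OR it was -0.25, against -0.55 for all genes. Pde6d, a carrier of lipid-modified proteins into cilia, was detected in 3 of 5, 10 of 13 and 28 of 29 cells, and arl3, the GTPase that unloads it, in 1, 11 and 15. Kif3b, a subunit of the IFT kinesin, was detected in 2, 5 and 12 cells.

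Genes of motile cilia, targets of FOXJ1 in other tissues, were read beside the foxj1 genes. A list of 19 matched genes, foxj1a among them, summed to 1.60 to 1313 CPM in immature cells (median 398 CPM), 1.798 to 4018 CPM in mature cells without an OR (median 1989 CPM) and 3.45 to 13860 CPM in those with one (median 2318 CPM). Of the 16 that were tested 11 were detected in no immature cell, against 33.2% of all tested genes. Hydin, of the central apparatus, and enkur were each detected in 3, 8 and 23 cells, and ccdc40, needed to assemble motile axonemes, in 0, 8 and 11. The outer dynein arm gene dnah5 was detected in 0, 1 and 2 cells and dnai2a in none. Cells s20534, s18930 and s20565 had sums of 1.798, 68.2 and 3.45 CPM, below the lowest of the other mature cells, 126.6 CPM. Whether carried-over RNA of multiciliated cells had a part in these values was not tested.

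The 3 bulk libraries held 2651985, 6250589 and 5320049 counts. Counts above 0 were found for 56, 76 and 76 of the 82 genes, and 55 (67.1%) were counted in all 3, against 35.3% of all genes. Any count above 0 is a lower bar than the minimum set for a detected gene in a cell. These numbers were therefore not compared with those of the cells. In bulk, fewer cells with a transcript and less of it per cell cannot be told apart. CPM was not divided by transcript length, and the choice of the 10 genes with the highest mean for display is no order of their levels. Library 1 stood apart, with cilium genes summing to 5146 CPM against 3572 and 3204 CPM. The 7 mature OSN markers moved with it, at sums of 3386, 1715 and 1819 CPM, as did ompb at 392, 158 and 168 CPM.

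Foxj1b was at 246, 260 and 227 CPM in the 3 libraries (244 ± 16.5 CPM, SD, n = 3) and rfx2 at 166, 151 and 150 CPM (156 ± 8.83 CPM, SD, n = 3). Both were close to equal in all 3. Rfx3 was at 9.80, 7.68 and 7.33 CPM (8.27 ± 1.34 CPM, SD, n = 3) and foxj1a at 40.7, 143 and 61.1 CPM. TULP3 was at 490, 206 and 396 CPM (364 ± 145 CPM, SD, n = 3). RFX7_(2_of_2) was at 5.66, 27.04 and 41.2 CPM.

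Among the other genes, library 1 was highest for several. CEP250 was at 713, 336 and 178 CPM, cep83 at 607, 304 and 187 CPM and cep131 at 412, 171 and 90.2 CPM. Ift52 was at 446, 79.4 and 85.9 CPM and ift20 at 190, 35.04 and 45.7 CPM, so that their means rested on library 1: without it they were 82.6 and 40.4 CPM, against 204 and 90.1 CPM with it. The same held for ift74 (187, 79.0 and 64.1 CPM), less so for cep350 (372, 200 and 189 CPM). It did not hold for ift22 (3.77, 71.7 and 57.3 CPM) or ift140 (3.77, 86.6 and 56.4 CPM), which were lowest there. All 11 IFT-B genes had a mean of 10 CPM or more.

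Markers named for other cells were also counted in bulk. The markers listed for epidermis summed to 2735, 5378 and 2341 CPM. They were not particular to bulk, as their medians in single cells were 2920 CPM (immature), 228 CPM (without an OR) and 2116 CPM (with one). Red blood cell markers summed to 43.7, 9.28 and 7915 CPM in bulk, and the immature OSN markers gng8 and gap43 to 46.4, 331 and 355 CPM. Crypt neuron markers summed to 624, 988 and 1544 CPM, and microvillous OSN markers to 29.8, 195 and 113 CPM. The terminal nerve marker was at 291, 0.64 and 179 CPM. Markers of progenitors summed to 172, 102 and 154 CPM, and those of proliferating cells to 342, 308 and 479 CPM. The motile cilium genes summed to 1057, 1078 and 1158 CPM. Their part in the bulk levels of cilium genes was not tested, and no test was made between bulk and single cells, which were sorted and amplified separately.

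**Figure D5:**
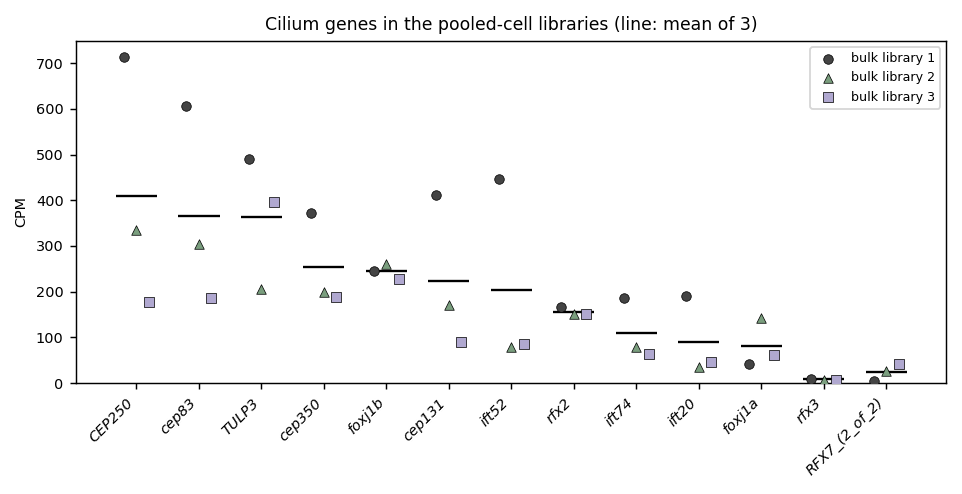
CPM in each of the 3 bulk libraries of the 10 cilium genes with the highest mean CPM, and of foxj1a, rfx3 and RFX7_(2_of_2); points are libraries and lines means. Foxj1b and rfx2 are close to equal in the 3 libraries, while CEP250, cep131 and ift52 are highest in library 1.

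Of the 15 cilium genes detected in no cell, 7 were cep genes, 4 tulp genes (among them tulp1a, TULP2 and TULP1_(3_of_3)), 2 rfx genes (rfx4 and rfx6), 1 was arl13a and 1 bbs12. Some were counted in bulk: cep72 had a mean of 29.3 CPM, cep70 18.3 CPM, tulp4b 11.03 CPM and CEP192 10.6 CPM, with 12, 8, 16 and 18 counts in all 47 cells together. Rfx4, rfx6, TULP2 and TULP1_(3_of_3) had 4, 1, 11 and 4 counts over all cells and a mean of 0.0 CPM in bulk.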

How the data were processed

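Reads were trimmed and mapped with STAR to the GRCz10 build by the authors, who deposited raw counts per gene for 47 cells and 3 bulk libraries; the methods name VERSE and the submitters' notes HTSeq as the counter. The use of strand is not given in the sources used here, so overlapping and antisense genes cannot be told apart, and reads of near-identical copies (the CEP128, CEP170B and RFX7 genes) may have been split. Reads carry no molecular identifiers, so read counts are not independent molecules, and limits set by a count of 0 cover counting error only. The number of columns not used was 0. No doublet caller was run. The study discarded wells seen under the microscope to hold several cells. It also left out cells with a low share of spike-in reads, which it took as likely clumps.

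Cells are not replicates. Counts were summed per class and spike-in set (2 sums a class) and tested with edgeR 4.0.16 in R 4.3.3 (TMM, glmQLFTest) on genes with 100 counts in at least 3 cells; DESeq2 1.42.0 was an alternative. The fits were tested on simulated data. They recovered known changes where the spread between sums was set small, but not at the spread of these sums. The p-values measure the spread between the 2 sums of a class, in which runs and single cells cannot be told apart. The sums held 1 and 4 immature cells, 2 and 11 without an OR, and 11 and 18 with one. The fit took them to vary alike. The sums of a class pair by run; deviations from the class means correlated at 0.117 to 0.233 between classes and at 0.0779 to 0.111 between clades. The SE is the log2 difference divided by the square root of F.

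Named genes were those with 100 counts in at least 10 cells, rfx3, foxj1b and TULP3, the 10 highest in bulk, those with an unadjusted p under 0.05 between classes, and all genes of role groups of at most 6; others were named after their values were seen. Some genes that this rule takes are not reported here. The gene list, roles and marker lists were chosen with earlier results of these data known. Of the 82 genes 72 matched a symbol in the gene table.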

Additional observations from a re-analysis of the deposited data

Results flagged for a closer look

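In 24 checks of single cells within the immature class and the 3 clades, 2 cells stood further from the others than Dixon's limit, where chance alone flags about 1 group in 20. The immature cell s23573 held 16 detected cilium genes, against 6 or 7 in the 4 others. It had 3087 detected genes in all, the most of any cell, and the highest sum of mature OSN markers of the immature cells, 726 CPM; its share of cilium genes, 0.518%, was within the limit. The clade B cell s23547 held 23, the most of any cell, among 2528 detected genes (0.91%), including 6 IFT-B genes.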

How the results depend on the processing

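Under edgeR no cilium gene was called in any comparison with any alternative run: other scaling, other minimum counts, equally weighted cells, immature cells against cells with an OR only, and the 3 cells low in OSN markers left out. This design can therefore show little about single genes. The study's own classes hold the same cells, so that a fit on them repeated the main fit and tested nothing. The sums are paired by run. With the run as a replicate block edgeR also called 0 cilium genes in each comparison. Over all genes it then called 2 between immature and mature cells, against 1 in the main fit. Leaving out each sum or cell gave 0 to 0 calls of cilium genes in each comparison. DESeq2 called 16 genes between immature and mature cells, 2 between cells without and with an OR, and 2, 5 and 5 in clades A, B and C; with the block, chosen after seeing the data, it called 16, 5, 8, 12 and 12. The cause of the gap between the tools was not tested. For mature cells without an OR, run 1 alone (2 cells) gave a median of 5.5 cilium genes and 0.346% of detected genes, against 13 and 0.623%. Leaving out 1 cell moved the medians over 6.5 to 7, 13 to 13 and 11 to 11.5 genes in immature, no-OR and OR cells, and over 0.349 to 0.373%, 0.615 to 0.636% and 0.628 to 0.639%. In bulk the median of the 82 mean CPM values was 12.7 to 16.3 CPM, and 49 to 52 genes had a mean of 10 CPM or more, when 1 library was left out.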

Other observations

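Pairs of cilium genes were read together in the 42 mature cells as a description. Rfx2 and rfx3, which can bind the same promoter motif, were both detected in 9 cells, rfx2 only in 8, rfx3 only in 10 and neither in 15. Foxj1b and TULP3 were both detected in 21 cells, foxj1b only in 7, TULP3 only in 6 and neither in 8. The 3 mature cells low in OSN markers held few cilium genes, none of them detected in all 3 cells. Cell s20534 had CEP250, bbs9 and ift172, and s18930 had 8 including ift27, ift74 and ift172. Cell s20565 had 6 including cep170aa, cep131 and RFX7_(2_of_2). Bbs9 and ift172 were detected in both s20534 and s18930, and cep131 in both s18930 and s20565. These choices were made after the values were seen.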
